A study of Homo sapiens with 6 samples.

Results

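CPS1 and 7 further enzymes of the urea cycle and arginine metabolism (NAGS, OTC, ASS1, ASL, ARG1, ARG2 and OAT) were followed in H9 cells, a human line of embryonic stem cells. The 8 genes were the rows of the raw count table whose Ensembl IDs map to these symbols, 8 of 60107 gene rows in all, and each was found once. CPS1 was selected on its measured level in these libraries, which was lower without glutamine, so its values are a description and carry no test. The other 7 were chosen for their place in the pathway.

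The cells had been driven toward nephron progenitor cells, the cells that give rise to the filtering units of the kidney, by a 10-day protocol and were collected at the end of day 9. One group of 3 libraries came from complete medium, labelled as grown with glutamine, and the other group of 3 from cells deprived of glutamine from day 0 on. All 6 libraries share the same cell line, protocol and collection day, and no label says whether replicates were separate cultures, so p-values measure only the spread between these libraries. The column headings of the count table name days 0 and 9, whereas the labels put every sample at day 9. Columns were assigned by the heading that each sample's description gives, and every direction below rests on that.

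The urea cycle turns ammonia into urea. In mitochondria NAGS makes N-acetylglutamate, the obligatory activator of CPS1, which joins ammonia and bicarbonate into carbamoyl phosphate, and OTC passes the carbamoyl group to ornithine to make citrulline. In the cytosol ASS1 joins citrulline to aspartate and ASL splits the product into arginine and fumarate. ARG1 in the cytosol and ARG2 in mitochondria cut arginine into urea and ornithine, and OAT connects ornithine to glutamate and proline. The whole cycle runs mainly in liver, CPS1 and OTC are also made in intestine, and the adult kidney uses ASS1 and ASL to make arginine from citrulline.

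The libraries held 78220507 to 84746566 counts, and 22613 genes passed the filter on low counts. The labelled cell type was checked against 12 markers of nephron progenitors and intermediate mesoderm. All 12 had a mean of at least 1 CPM, counts brought to a common library total with edgeR's TMM scaling, and their summed level was 984 to 1665 CPM with glutamine and 1543 to 2067 without. Replicate 1 with glutamine stood apart from the other libraries of its group. It had the 1665 CPM of that sum, where replicates 2 and 3 had 1054 and 984. The common dispersion, edgeR's measure of variation between replicates, was 0.0408 with all libraries and 0.0083 without that one. Results are therefore given with and without it.

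The sequences before the start sites of CPS1, ARG2 and OAT show how the upstream regions of these genes differ in CG dinucleotides. CPS1 was the gene lower without glutamine, and ARG2 and OAT had the smallest p-values among the 7 other genes. The sequences come from RefSeq on GRCh38.p14, read 5′ to 3′ on the strand of the gene. RefSeq windows of 250 bases before each start were available for all 8 genes, and bases past the first base of the gene in GENCODE 29 are not shown for CPS1 start 1, ARG2 and OAT. CPS1 start 3 lies inside the GENCODE 29 gene, and its window is shown whole. Capitals mark each CG, and in ARG2 also the run TGACGTCA, the palindromic cyclic AMP response element.
CPS1, start 1, chr2:210477435-210477681, plus strand: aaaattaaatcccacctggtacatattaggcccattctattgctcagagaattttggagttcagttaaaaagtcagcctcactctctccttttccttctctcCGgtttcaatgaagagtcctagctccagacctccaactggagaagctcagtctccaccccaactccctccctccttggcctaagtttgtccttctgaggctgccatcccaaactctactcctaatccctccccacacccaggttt
CPS1, start 3, chr2:210593105-210593354, plus strand: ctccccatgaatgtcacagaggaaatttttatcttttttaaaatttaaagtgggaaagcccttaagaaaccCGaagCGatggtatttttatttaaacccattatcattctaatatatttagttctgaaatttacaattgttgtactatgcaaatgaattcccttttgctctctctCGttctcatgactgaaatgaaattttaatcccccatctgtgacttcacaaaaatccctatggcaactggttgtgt
ARG2, chr14:67619670-67619797, plus strand: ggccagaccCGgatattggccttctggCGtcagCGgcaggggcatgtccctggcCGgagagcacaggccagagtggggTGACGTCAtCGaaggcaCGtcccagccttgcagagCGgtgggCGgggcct
OAT, chr10:124418977-124419173, minus strand: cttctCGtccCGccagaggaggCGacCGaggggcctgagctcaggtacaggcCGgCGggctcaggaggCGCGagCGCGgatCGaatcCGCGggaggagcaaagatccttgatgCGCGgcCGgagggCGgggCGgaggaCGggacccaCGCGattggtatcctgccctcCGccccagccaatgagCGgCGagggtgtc

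In the full windows of 250 bases CPS1, OTC and ARG1 held few CG dinucleotides. ASS1, ASL, ARG2 and OAT held many more, and NAGS lay between. The 3 CPS1 windows held 1, 3 and 3 CG dinucleotides, the OTC window 2 and the ARG1 window 1. The NAGS window held 13, the 2 ASS1 windows 21 and 24, the ASL window 22 and the ARG2 and OAT windows 27 each. Among 35116 windows of all genes, 6.06% held fewer than the window of CPS1 start 1. The NAGS window exceeded 53.4% of them, and those of ARG2 and OAT 82.3%. TGACGTCA, searched on both strands, occurred at 2 places in the ARG2 window, the first starting 172 bases and the second 64 bases before the RefSeq start. The second lies past the gene's first base in GENCODE 29 and is not shown. It was in none of the other members' windows and in 1.65% of all windows. TGATGNAA, the composite element of ATF4 and C/EBP factors, and TTGCNNAA, a relaxed form of the C/EBP site, searched on both strands, were in none of the members' windows, against 3.14% and 9.05% of all windows. A match is a run of letters and not a bound site. The principal CPS1 transcript of GENCODE 29 starts at position 210556538, which none of the 3 RefSeq windows covers, and gene counts do not show which start was used.

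Transcript levels of the 8 genes spanned a wide range. Levels between genes were compared as CPM per kilobase of the principal GENCODE 29 transcript. OAT was the most abundant, at 29.5 to 38.6 CPM per kilobase over the 6 libraries, followed by CPS1 at 14.8 to 28.0, and these ranges did not overlap. ASS1 at 5.17 to 8.18 and ARG2 at 3.48 to 6.13 came next and overlapped each other, although not within the group with glutamine. ASL at 2.47 to 3.34 and NAGS at 0.513 to 0.927 followed without overlap. ARG1 at 0.0885 to 0.234 and OTC at 0.0162 to 0.163 overlapped and were the lowest. With the union of all exons as length, ARG2 took the place before ASS1 and the rest of the order was as given. The places of ARG2 and ASL also depend on how reads shared with other genes were counted, which is not given. CPS1 was thus present at over 10 CPM per kilobase in every library beside an OTC level under 1 in every library, and OTC is the enzyme that uses its product in the cycle.

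**Figure D1:**
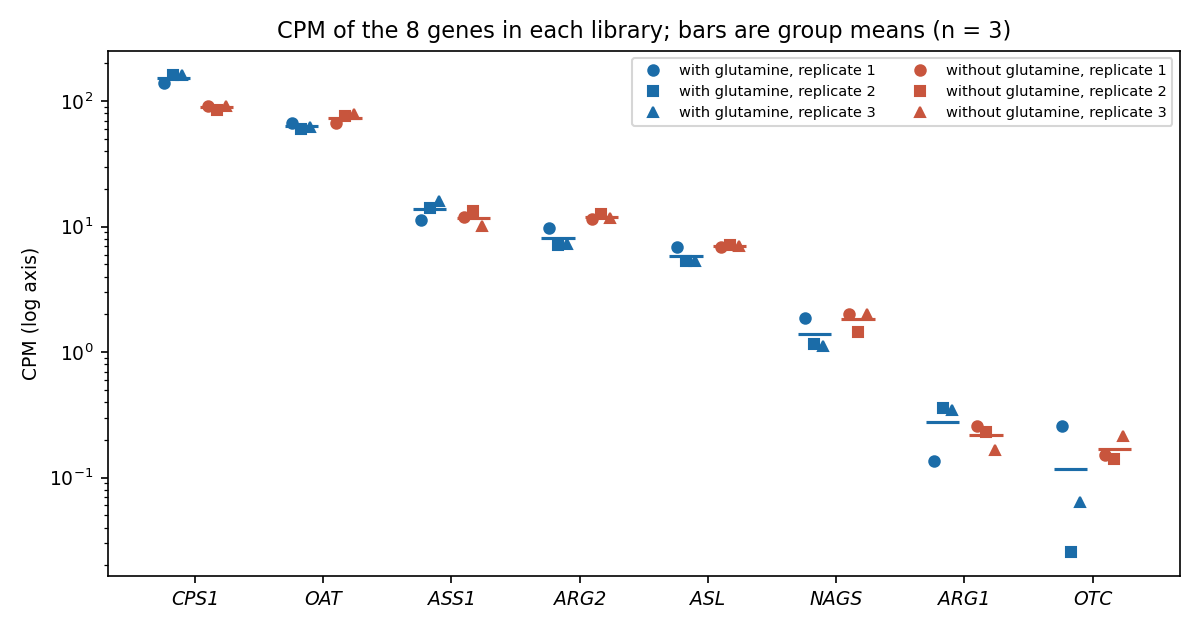
CPM (log axis) of the 8 genes in each of the 6 libraries, with glutamine in blue and without in red, marker shape giving the replicate and bars the group means (n = 3). CPS1 at 139 to 163 CPM with glutamine lies above 85.8 to 91.9 without, and OTC and ARG1 lie under 1 CPM in all libraries.

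CPS1 (ENSG00000021826, chromosome 2, 210477682 to 210679107, plus strand, GENCODE 29 on GRCh38) is the ammonia-fixing enzyme of the mitochondrial matrix. It stood at 139, 161 and 163 CPM with glutamine, in the order of replicates 1, 2 and 3, against 91.5, 85.8 and 91.9 without. The groups did not overlap, and the lowest library with glutamine, replicate 1, was above the highest without; 16.9% of all genes tested were arranged in this way, from which nothing is read for a gene selected on it. The group means were 154 ± 13.3 CPM with and 89.8 ± 3.39 CPM without (SD, n = 3). The log2 fold change from edgeR was -0.78 (SE 0.083), to 0.582 of the level with glutamine, and it was -0.85 without replicate 1 with glutamine. In RNA from whole cultures, fewer cells that express a gene and less RNA per cell cannot be told apart.

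Replicate 1 with glutamine lay in different places for the 8 members. On a log2 scale running from the mean of replicates 2 and 3 of its group at 0 to the mean without glutamine at 1, that library was at 0.26 for CPS1. It was at 0.47 for OAT, 0.6 for ARG2, 0.94 for ASL, 1.1 for NAGS, 1.16 for ASS1, 1.31 for OTC and 1.91 for ARG1. CPS1 was nearest its own group, and 4 members lay past the mean without glutamine. CPS1 was selected as lower without glutamine in these same libraries, replicate 1 among them. Its position was favoured by that selection and is not read as a trait of the gene. Over the 3895 tested genes whose distance on this axis was at least that of CPS1, the median position was 0.79 with quartiles of 0.55 and 0.96. That distance leaves replicate 1 with glutamine out, so those genes were not selected in the way CPS1 was. These positions are a description of 1 library.

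Because CPS1 is a transcript typical of liver and gut, markers of those cells were read in the same libraries. Of 12 hepatocyte and liver progenitor markers 2 had a mean of at least 1 CPM, APOA1 and TF. The list summed to 5.24 to 7.94 CPM with glutamine and 5.84 to 6.28 without, ranges that overlap, but its members differed in direction. TF, transferrin, was at 2.59, 2.66 and 2.23 CPM with glutamine and 1.55, 1.47 and 1.59 without, groups apart in the direction of CPS1 (log2 fold change -0.70, adjusted p 0.0706 by edgeR and 0.00556 by DESeq2). APOB was under 1 CPM in every library and lay higher without glutamine (log2 fold change 0.54, adjusted p 0.135 by edgeR). ALB, albumin, had 98, 86 and 71 counts with glutamine and 51, 82 and 75 without, groups that overlapped (log2 fold change -0.32, SE 0.26). FGB was at 0 in every library and AFP had at most 1 count in any. Of 6 enterocyte markers 1, CDX2, reached a mean of 1 CPM, and SI was at 0 throughout. The enterocyte list summed to 2.67 to 5.75 CPM with and 2.61 to 3.45 without, most of it CDX2 in each library. Of 8 definitive endoderm markers 2, GATA6 and CXCR4, had a mean of at least 1 CPM. The list summed to 49.1 to 51.1 CPM with and 87.1 to 99.4 without, most of it CXCR4, but its members differed in direction. CXCR4, GATA6, GATA4 and CER1 lay higher without glutamine (log2 fold changes 0.84, 1.82, 1.33 and 2.29). SOX17 and HHEX lay lower (-1.60 and -2.21), and in all of these the groups were apart. The 6 proximal tubule markers summed to 39.8 to 41.7 CPM with and 38.0 to 42.7 without, a sum in which 2 abundant members went opposite ways. LRP2, the endocytic receptor megalin, was at 24.1, 28.6 and 29.8 CPM with glutamine and 19.8, 16.7 and 15.8 without (log2 fold change -0.66, adjusted p 0.0682 by edgeR and 0.00071 by DESeq2), and GATM, described below, was higher without. The 12 nephron progenitor markers differed more within the group with glutamine than CPS1 did, from 984 to 1665 CPM. The part of these cells in the CPS1 values was not tested.

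CPS1 was also read against CAD, which carries the other carbamoyl phosphate synthase of the cell, the glutamine-using enzyme that starts pyrimidine synthesis in the cytosol. The count of CPS1 per count of CAD, not corrected for length, was 0.845, 0.800 and 0.793 in replicates 1 to 3 with glutamine and 0.579, 0.574 and 0.597 without. CAD itself stood at 165, 201 and 206 CPM with glutamine, against 158, 149.6 and 154 without, with a log2 fold change of -0.31 (SE 0.096, adjusted p 0.101 by edgeR), which did not pass. Without replicate 1 with glutamine CAD was called, at -0.40 (adjusted p 0.000882 by edgeR). CPS1 made up 33.5%, 38.9% and 38.2% of the summed CPM per kilobase of the 8 members with glutamine, and 24.4%, 21.4% and 22.6% without. The ratio to CAD and this share both contain the CPS1 values on which the gene was selected. Their differences between groups are therefore a description and not a further result.

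The comparison without against with glutamine was tested for the 7 other members. With edgeR's quasi-likelihood test and Benjamini-Hochberg adjustment over all genes tested, none of the 7 had an adjusted p under 0.05, a threshold that 0.00442% of all genes passed. At an unadjusted p under 0.05 there were 2 of 7, against 29.7% of all genes. ARG2 was the 1 of 7 whose groups did not overlap, with the libraries without glutamine higher, an arrangement that 17.3% of all genes showed. DESeq2 called 1 of the 7, ARG2, against 13.7% of all genes. When replicate 1 with glutamine was left out, 6 of the 7 were called by edgeR, 5 higher and 1 lower, against 41.3% of all genes, 22.3% higher and 19% lower. One of the 5 higher is OTC, which then passed the filter on low counts only through the libraries without glutamine, so its call was favoured by the filter and the count is not read as support. The median log2 fold change of the 7 was 0.26, and that of all genes 0.001. With the sign ignored, the medians were 0.348 for the 7 and 0.252 for all genes.

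ARG2 (ENSG00000081181, chromosome 14, 67619798 to 67651720, plus strand) is the mitochondrial arginase. It stood at 9.76, 7.11 and 7.29 CPM with glutamine, against 11.6, 12.5 and 11.7 without. The groups were apart, and replicate 1 with glutamine was the highest of its group. The log2 fold change was 0.57 (SE 0.14, adjusted p 0.0771 by edgeR), and DESeq2 gave an adjusted p of 0.00656. Without replicate 1 with glutamine the log2 fold change was 0.73 (adjusted p 0.000228 by edgeR). ARG1 (ENSG00000118520, chromosome 6, 131573144 to 131584332, plus strand), the cytosolic arginase of liver, had 11, 28 and 27 counts with glutamine and 22, 18 and 13 without. The groups overlapped, with the lowest library in the group with glutamine. Its log2 fold change was -0.35 (SE 0.40, adjusted p 0.575 by edgeR). There were 72, 19.8 and 21.2 ARG2 counts per ARG1 count with glutamine and 45.2, 54.6 and 70.7 without, so that ARG2 counts were the larger in each library.

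OAT (ENSG00000065154, chromosome 10, 124397303 to 124418976, minus strand) moves the delta-amino group of ornithine to alpha-ketoglutarate. It stood at 66.9, 60.4 and 62.0 CPM with glutamine, against 66.7, 76.3 and 79.1 without. Replicate 1 with and replicate 1 without glutamine were nearly at the same level, and the groups overlapped through them. The log2 fold change was 0.23 (SE 0.089, adjusted p 0.142 by edgeR), and it was 0.28 (adjusted p 0.0259 by edgeR) without replicate 1 with glutamine. OAT showed the smallest of the differences that were called once that library was left out.

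ASS1 and ASL, which make arginine in sequence, had log2 fold changes of opposite sign, and neither was called. ASS1 (ENSG00000130707, chromosome 9, 130444929 to 130501274, plus strand) stood at 11.3, 14.1 and 16.1 CPM with glutamine, against 12.0, 13.3 and 10.2 without. The groups overlapped, with a log2 fold change of -0.23 (SE 0.16, adjusted p 0.361 by edgeR), and -0.35 (adjusted p 0.0383 by edgeR) without replicate 1 with glutamine. ASL (ENSG00000126522, chromosome 7, 66075798 to 66093558, plus strand) stood at 6.90, 5.34 and 5.28 CPM with glutamine, against 6.88, 7.16 and 7.0 without. Replicate 1 with glutamine sat with the libraries without it, and the other libraries of its group were lower. The log2 fold change was 0.26 (SE 0.14, adjusted p 0.235 by edgeR), and 0.40 (adjusted p 0.00982 by edgeR) without that library. ASS1 counts per ASL count were 1.64, 2.64 and 3.06 with glutamine and 1.74, 1.85 and 1.46 without, means of 2.44 ± 0.730 and 1.68 ± 0.204 (SD, n = 3). An exact permutation test of the log2 ratio, two-sided, gave p = 0.3, where the smallest p this design allows is 0.1.

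NAGS (ENSG00000161653, chromosome 17, 44004546 to 44009063, plus strand), which supplies the activator of CPS1, stood at 1.89, 1.17 and 1.12 CPM with glutamine, against 2.02, 1.44 and 2.01 without. Replicate 1 with glutamine exceeded replicate 2 without it. The log2 fold change was 0.39 (SE 0.26, adjusted p 0.334 by edgeR), and 0.68 (adjusted p 0.0233 by edgeR) without replicate 1 with glutamine. OTC (ENSG00000036473, chromosome X, 38352545 to 38421450, plus strand), the enzyme after CPS1, had 21, 2 and 5 counts with glutamine and 13, 11 and 17 without. The highest library was replicate 1 with glutamine, and it passed the filter through that library and the 3 without glutamine. Its log2 fold change was 0.52 (SE 0.65, adjusted p 0.612 by edgeR), and 1.88 (SE 0.50) without that library. That value rests on 7 counts with glutamine in a gene kept only through the group where it is higher, so no p is given for it.

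**Figure D2:**
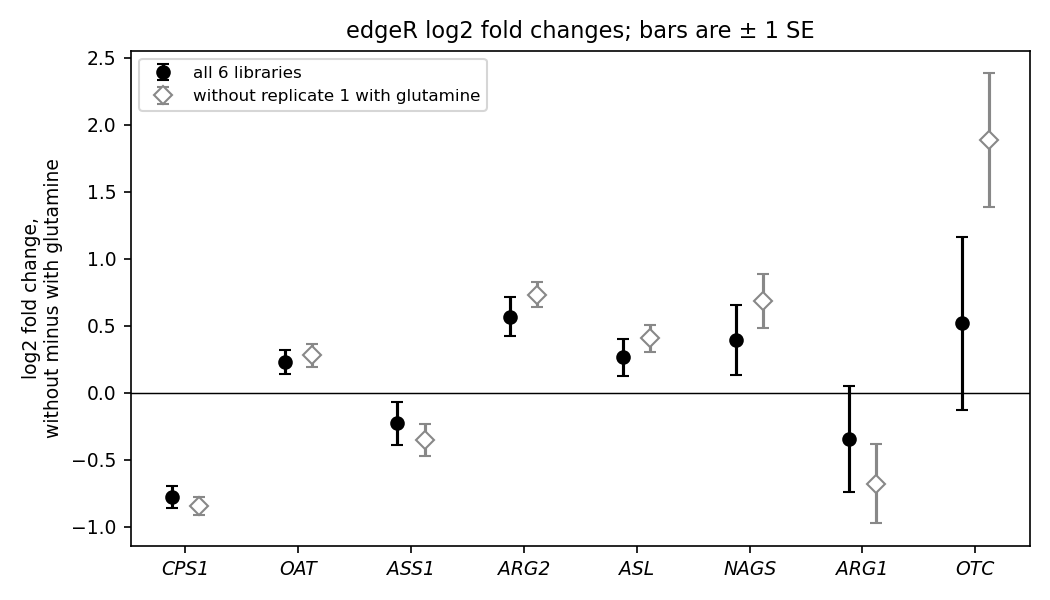
Log2 fold changes from edgeR, without minus with glutamine, for the 8 genes, with all 6 libraries (filled circles) and without replicate 1 with glutamine (open diamonds); bars are 1 SE either way. CPS1 is at -0.78 and -0.85, and every gene keeps its side of 0. Once that library was left out, 6 of the 7 others were called, against 41.3% of all genes. OTC is among the 6, and its call was favoured by the filter on low counts.

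Reads of some members can be shared with other genes, and the treatment of such reads is not given in the sources used here. Every stretch of 50 bases, the read length, of each principal transcript was looked up on both strands in all GENCODE 29 transcripts. None of the stretches of CPS1, NAGS, OTC or ARG1 occurred in another gene. In ARG2 40.6% of them lay in the overlap with VTI1B on the opposite strand, a gene with 4911 to 6255 counts, so the ARG2 values depend on whether counting used the strand. In ASL 24.5% were shared with the overlapping gene AC068533.4, which had 0 counts. In ASS1 9.15% occurred in other genes, and the 11 genes named as ASS1 pseudogenes together had 81 to 122 counts, 8.04% to 12.4% of the ASS1 count. In OAT 5.35% occurred in other genes. ARG1 overlaps MED23 on the opposite strand, which had 6533 to 7879 counts against at most 28 for ARG1. No stretch of the principal ARG1 transcript is in a spliced MED23 transcript, and whether unspliced MED23 RNA entered the ARG1 count was not tested.

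Other genes of ammonia, ornithine and arginine handling were taken from a list of 45, and 41 of them passed the filter. None had an edgeR adjusted p under 0.05, a threshold that 0.00442% of all genes passed. DESeq2 called 6 of the 40 it adjusted, 5 higher and 1 lower, against 13.7% of all genes. These were SLC7A3, CEBPA, CEBPB, GATM, DDAH1 and NOS3. Below, passing means an edgeR adjusted p under 0.05 with all libraries. In 9 of the 41 the libraries without glutamine were all above those with it and in 4 all below, against 17.3% and 16.9% of all genes. The median log2 fold change of the 41 was 0.03, with 10 at an unadjusted p under 0.05, against 29.7% of all genes. Without replicate 1 with glutamine 20 of the 41 were called, 14 higher and 6 lower, against 41.3% of all genes, 22.3% higher and 19% lower.

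Among 5 plasma membrane transporters of arginine and lysine, 2 were higher in all libraries without glutamine, against 17.3% of all genes, and none passed. SLC7A3 stood at 10.7, 9.73 and 10.3 CPM with glutamine, against 14.1, 20.6 and 16.1 without, a log2 fold change of 0.72 (SE 0.15, adjusted p 0.0694 by edgeR, and 0.0029 without replicate 1 with glutamine). Its groups were clearly apart, with replicate 1 among its own group. SLC7A1, the widely expressed arginine importer, stood at 79.1, 85.7 and 94.2 CPM with, against 101, 99.6 and 95.4 without, a log2 fold change of 0.19 (SE 0.082, adjusted p 0.167 by edgeR). Of 4 mitochondrial carriers 3 were tested and all overlapped between groups. SLC25A15, which exchanges ornithine and citrulline across the inner membrane, had a log2 fold change of 0.03 (SE 0.088, adjusted p 0.832 by edgeR). SLC25A2, its homologue, had 3 to 10 counts and was not tested. Without replicate 1 with glutamine 2 of the 3 tested carriers were called by edgeR, against 41.3% of all genes. SLC25A13 was then lower (log2 fold change -0.24, adjusted p 0.0125 by edgeR) and SLC25A12 higher (0.31, adjusted p 0.0122 by edgeR).

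Of the genes that supply bicarbonate to CPS1 or act on it, 6 of 7 were tested and none passed. In all libraries without glutamine 3 were higher, against 17.3% of all genes, and in so short a list this is not read as a result. SIRT5, a mitochondrial deacylase that acts on CPS1, stood at 27.7, 23.5 and 24.2 CPM with glutamine, against 29.4, 29.7 and 28.1 without (log2 fold change 0.21, SE 0.089, adjusted p 0.17 by edgeR, and 0.0122 without replicate 1 with glutamine). CEBPA and CEBPB encode C/EBP factors that act on the CPS1 gene in liver. CEBPA had 43, 16 and 13 counts with and 74, 61 and 62 without, a log2 fold change of 1.42 (SE 0.38, adjusted p 0.0822 by edgeR). CEBPB stood at 4.08, 3.24 and 3.23 CPM with, against 7.35, 6.04 and 4.97 without, a log2 fold change of 0.80 (SE 0.18, adjusted p 0.072 by edgeR). Both lay above in every library without glutamine, and CEBPA was under 1 CPM in every library. Without replicate 1 with glutamine their edgeR adjusted p were 0.000248 and 0.00198. HNF4A, also listed, had 16, 1 and 1 counts with and 19, 18 and 6 without, and its groups overlapped (log2 fold change 1.21, SE 0.82). A link of these 3 genes to the CPS1 values was not tested. CA5A, the carbonic anhydrase of liver mitochondria, had at most 2 counts in a library, whereas CA5B was at 15.8 to 16.9 CPM throughout.

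Of 7 genes that make or use ammonia and glutamate 5 were tested, and none passed. GLUL, which fixes ammonia into glutamine, stood at 387, 435 and 468 CPM with glutamine, against 369, 372 and 369.8 without, a log2 fold change of -0.21 (SE 0.082, adjusted p 0.141 by edgeR), and -0.28 (adjusted p 0.00665 by edgeR) without replicate 1 with glutamine. Its libraries without glutamine were all below those with it. GLUD1, which releases ammonia from glutamate, was at 90.2 to 103 CPM with and 91.3 to 98.5 without. RHBG and RHCG, ammonia channels of the distal nephron, had at most 5 counts in a library. Of the 6 genes between ornithine and proline none passed. ALDH18A1 and PYCR3, 2 of the 6, were higher in all libraries without glutamine, against 17.3% of all genes. PYCR3, a pyrroline carboxylate reductase, had a log2 fold change of 0.29 (adjusted p 0.12 by edgeR), and 0.36 (adjusted p 0.0102 by edgeR) without replicate 1 with glutamine. PRODH, which breaks down proline, had 166, 13 and 13 counts with glutamine and 229, 168 and 135 without, so replicate 1 lay with the other group. Its log2 fold change was 1.44 (SE 0.77, adjusted p 0.244 by edgeR), and 3.71 (adjusted p 2.26e-05 by edgeR) without that library. The 5 genes from ornithine to polyamines all overlapped between groups, with log2 fold changes from -0.11 for AZIN2 to 0.04 for OAZ1. None of those 5 was called without replicate 1 either.

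Of 8 genes that use arginine or act on the routes to creatine, nitric oxide and agmatine, none passed. In all libraries without glutamine 2 were higher and 2 lower, against 17.3% and 16.9% of all genes. GATM, which makes the creatine precursor from arginine and is known from the kidney tubule, stood at 13.1, 7.50 and 8.36 CPM with glutamine, against 19.4, 19.9 and 18.6 without. The log2 fold change was 0.9975 (SE 0.20, adjusted p 0.0689 by edgeR), and 1.28 (adjusted p 5.83e-06 by edgeR) without replicate 1 with glutamine. DDAH1, which removes methylated arginines that inhibit nitric oxide synthases, stood at 27.9, 34.7 and 36.3 CPM with, against 47.2, 59.2 and 53.4 without (log2 fold change 0.69, SE 0.13, adjusted p 0.068 by edgeR). NOS3, the endothelial nitric oxide synthase, stood at 4.73, 6.25 and 5.84 CPM with, against 3.93, 3.20 and 3.69 without (log2 fold change -0.63, SE 0.15, adjusted p 0.0742 by edgeR). In these 3 genes the groups did not overlap, and both DDAH1 and NOS3 were called without replicate 1 with glutamine, at edgeR adjusted p of 0.0011 and 0.00113. GAMT, the next creatine enzyme, overlapped between groups with a log2 fold change of -0.13 (SE 0.13).

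**Figure D3:**
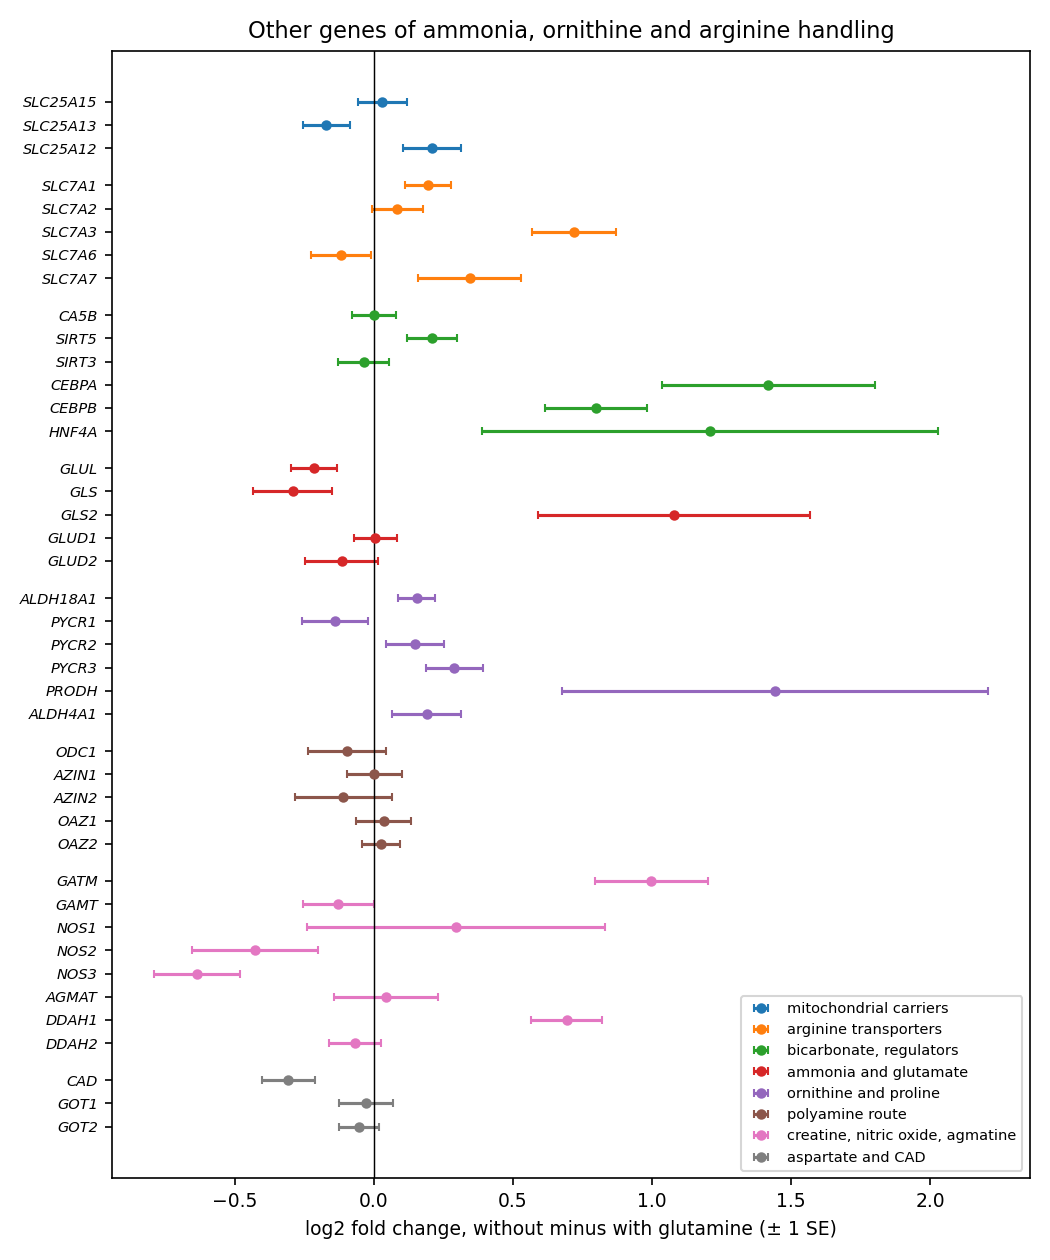
Log2 fold changes from edgeR, without minus with glutamine, for the 41 tested genes of ammonia, ornithine and arginine handling, coloured by role; bars are 1 SE either way. The polyamine genes sit within -0.11 and 0.04, while CEBPA at 1.42, GATM at 0.9975 and NOS3 at -0.63 lie farther out.

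The genes whose pattern over the 6 libraries was most like that of CPS1 were named by Pearson's r of log2 CPM among 13883 other protein-coding genes with a mean of at least 50 counts. The 5 nearest were EPHX2 (r = 0.998), FBXL13 (0.9964), TRIM43B (0.9951), FBXO24 (0.9949) and CLYBL (0.9945). EPHX2, a soluble epoxide hydrolase, stood at 32.0, 35.3 and 35.7 CPM with glutamine, against 23.9, 23.2 and 23.4 without. CLYBL, a mitochondrial citramalyl-CoA lyase, stood at 7.81, 8.43 and 8.16 CPM with, against 6.20, 5.92 and 6.06 without. All 5 were lower in every library without glutamine, as the measure requires of a close match. The libraries share 1 normalization, r over 6 points in 2 groups carries no test here, and 2.59% of the candidates had r above 0.95. TRIM43B has close paralogs, so its counts are uncertain.

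**Figure D4:**
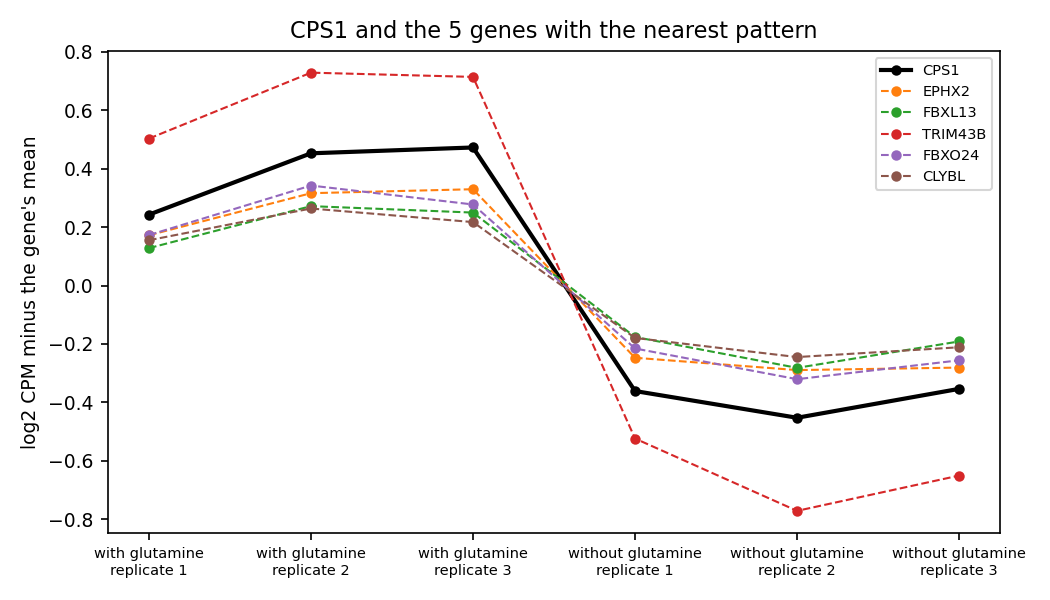
Log2 CPM of CPS1 (black) and its 5 nearest genes in each library, each gene centred on its own mean. All 6 lines run above 0 in the libraries with glutamine and below 0 in those without, with replicate 1 the lowest of its group for CPS1.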

How the data were processed

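RNA was sequenced from 3 libraries with and 3 without glutamine, as stranded mRNA libraries read as single ends of 50 bases, per the labels. The authors deposited raw counts per Ensembl gene. Per the submitters' processing notes, cutadapt, Trim Galore, FastQC, STAR 2.5.2b, DESeq2 and the build GRCh38 were used. The counting program, annotation and strand setting are not given in the sources used here. The deposited normalized counts were not used here. Of 60107 IDs 56531 matched GENCODE 29.

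The test was edgeR 4.0.16 in R 4.3.3, with filterByExpr, TMM and quasi-likelihood F tests (legacy = FALSE), adjusted by Benjamini-Hochberg with a threshold of 0.05. The SE is the absolute log2 fold change divided by the square root of F. Alternatives were other scalings, no filter, legacy = TRUE, DESeq2 1.42.0, limma-voom (limma 3.58.1), a replicate block and each library left out. Members, lists, settings and the naming rule (all members, genes of the list of 45, and the 5 nearest to CPS1 by r) were chosen with earlier results of these data known. Which genes of the list are described was chosen after their values were seen.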

Additional observations from a re-analysis of the deposited data

How the results depend on the processing

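No alternative changed the sign of any of the 8 log2 fold changes. For CPS1 it ran from -0.8483 to -0.7422 with 1 library left out and from -0.8254 to -0.775 under the other alternatives, within 1 SD of replicates. The count of genes called over the whole table was 0 under upper quartile scaling, library size only, limma-voom, legacy = TRUE and the replicate block, 2 with no filter and 3030 with DESeq2. At an unadjusted p under 0.05 these gave 6923, 6625, 7047, 6599, 6280, 8287 and 6350 genes. The genes tested were 43046 with no filter, 43005 with DESeq2 and 22613 in the others of these. The count of genes called ran from 0 to 9573 with 1 library left out, 9573 without replicate 1 with glutamine and 17 without replicate 1 without glutamine. The cause was not tested. Under DESeq2 ARG2 became called at 0.573.

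With 1 library left out, log2 fold changes ran from 0.256 to 0.6818 for NAGS, 0.0457 to 1.8845 for OTC, -0.3533 to -0.1063 for ASS1, 0.194 to 0.4043 for ASL, -0.6796 to -0.1359 for ARG1, 0.4763 to 0.7318 for ARG2 and 0.1762 to 0.3039 for OAT. The 6 of these called in 1 such fit each, all but ARG1, were called without replicate 1 with glutamine, and in no other. In that fit 41.3% of all genes were called, and OTC passed the filter there only through the libraries without glutamine. Same-numbered libraries did not deviate together (correlations of -0.021, 0 and 0.028, with 1 of 3 libraries correlating best with its own number), and with the replicate block no member was called. ARG1 and OTC, at 2 to 28 counts a library, had the largest SEs of the 8 genes, 0.40 and 0.65.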
